A study of Mus musculus with 6 samples.

Results

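The genes described here are those that the deposited gene table annotates to the KEGG pathway of the complement and coagulation cascades, 90 of the 16375 genes in the table. Expression was measured by bulk RNA sequencing of mouse liver in 6 libraries. The inosine group has 3 libraries from mice injected intraperitoneally with inosine, the purine nucleoside formed when adenosine loses its amino group, and the control group has 3 libraries from liver labelled as control. Dose, number of injections, strain, sex, age and what the controls were given are not stated in the sources used here, nor whether a library stands for 1 mouse, so the p-values speak of the spread among libraries only. The title places the study in work on RNA editing in the liver and cancer cachexia; no tumour is named in the labels of either group. Totals ran from 16383896 to 17505035 estimated counts per library. The 6 hepatocyte markers summed to 112969 to 123712 CPM in the inosine libraries and 93278 to 124297 CPM in the controls, as the tissue label has it (CPM, counts divided by library size, here scaled by the TMM method of edgeR; 1 marker, Serpina1a, is itself a member).

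Complement is a set of plasma proteins that mark microbes and damaged cells for removal. It can be started by the classical, the lectin or the alternative route, all of which cleave C3 and can end in a pore of terminal components in the target membrane. Coagulation is a neighbouring chain of serine proteases that ends in thrombin and the cleavage of fibrinogen to fibrin, and plasmin dissolves the clot again. Hepatocytes secrete most of the soluble proteins of both cascades, while macrophages, endothelial cells and platelets supply some of them and carry the receptors. RNA levels report on the making of these proteins and not on whether the cascades, which run by cleavage in the blood, were active.

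Most of the 90 genes were abundant in these livers. By mean TPM over the 6 libraries (a share of all transcripts that corrects for gene length, deposited by the authors), 13 members had at least 1000 TPM, 28 had 100 to 1000, 15 had 10 to 100, 8 had 1 to 10 and 26 had under 1. None had 0 counts in all libraries. The copies of alpha-1-antitrypsin led with 6916 TPM for Serpina1b, 6788 for Serpina1c and 5603 for Serpina1a, followed by the fibrinogen chain Fgb at 3437 and C3 at 2891 TPM. The 10 most abundant members held 71.1% of the TPM of all members. Together the members took 6.28%, 7.09% and 6.34% of the counts in the inosine libraries, against 5.96%, 6.60% and 6.45% in the controls. The groups overlapped on that share. The annotation to the extracellular space, which the choice of genes did not use, is carried by 69 of the 90 members and by 7.43% of all genes in the table.

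**Figure D1:**
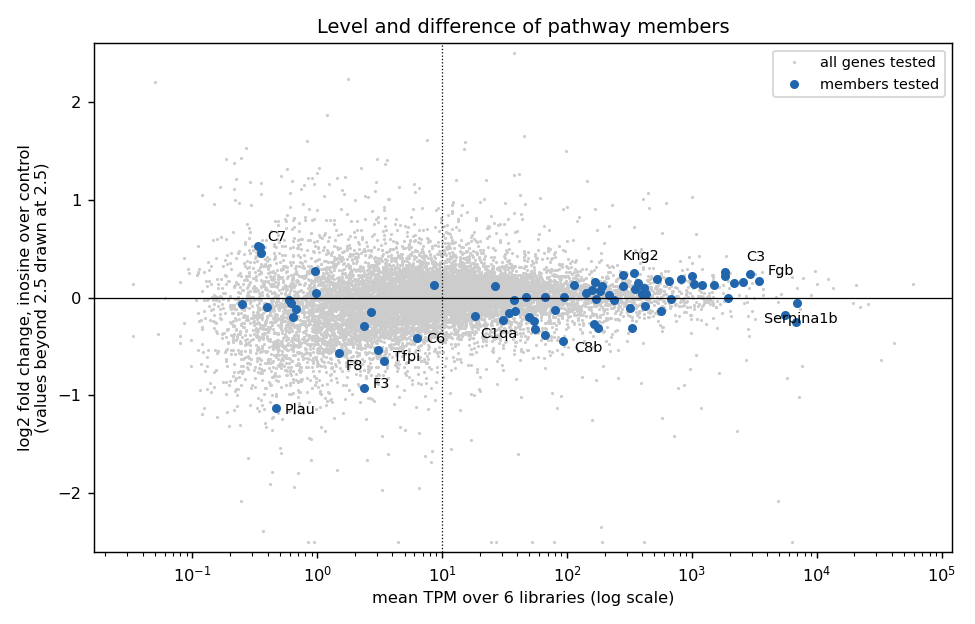
Mean TPM over the 6 libraries on a log axis (horizontal) against the edgeR log2 fold change of inosine over control (vertical), with grey points for all genes tested, blue points for the 76 members tested and a dotted line at 10 TPM. Members above 10 TPM stay between -0.45 (C8b) and 0.27 (Fga), and the lowest values belong to rare transcripts such as Plau and F3.

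No member passed the test of inosine against control. Of the 90 members, 76 passed the low-count filter, and edgeR called 0 of them at an adjusted p under 0.05, where it called 0.00811% of all 12326 genes tested, a single gene that is no member. DESeq2 called 0 members as well, against 1.88% of all genes with an adjusted p, and the authors' deposited table has 0 members at a q-value under 0.05, against 1.17% of its genes. The smallest adjusted p among members was 0.23 in edgeR, for F8, and 0.16 in DESeq2; the smallest q in the authors' deposited table was 0.224, also for F8. At an unadjusted p under 0.05 edgeR had 6 members, 1 higher and 5 lower, or 7.89% of those tested, while 14.5% of all genes tested lay there (7.21% higher, 7.26% lower). DESeq2 had 12 of the same 76 members under that unadjusted p, or 15.8%, beside 10.7% of the same 12326 genes: 6 higher, where 5.51% of all genes were, and 6 lower, where 5.19% were. The count of such members moved with single libraries: without control replicate 1 edgeR had 1 higher and 13 lower, 18.2% of the members beside 19.4% of all genes then tested, and without inosine replicate 1 or control replicate 2 it had 0 higher and 2 lower. Those 2 were 2.63% of the members beside 12.3% of all genes without inosine replicate 1, and 2.597% beside 9.75% without control replicate 2.

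The members were split evenly, with 38 log2 fold changes above 0 and 38 below, and their median was -0.00068, beside -0.0095 over all genes tested. All 3 inosine libraries lay above all 3 controls for 11 members, where 11.1% of all genes tested did so, and below them for 3, where 9.8% did. That is 14 of 76, or 18.4%, beside 20.9% of all genes. The precision differed with abundance. For 48 of the 76 members, the 95% interval of the difference lay wholly inside 1.5-fold either way, beside 7585 of all 12326 genes tested. Of these members 47 were among the 56 of at least 10 TPM, beside 4592 of the 5459 genes of that level. Among the 56 members of at least 10 TPM the median log2 fold change was 0.028, beside 0.032 over all genes of that level, and among the 20 rarer members tested it was -0.11, beside -0.066. All 11 members with the inosine libraries on top were among the 56 abundant ones, and all 3 with the inosine libraries at the bottom were among the rare ones. Over all genes, 822 of 5459 abundant ones had the inosine libraries on top and 334 at the bottom, against 547 and 874 of the 6867 rarer ones. The limit of 10 TPM was chosen after the values were seen.

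**Figure D2:**
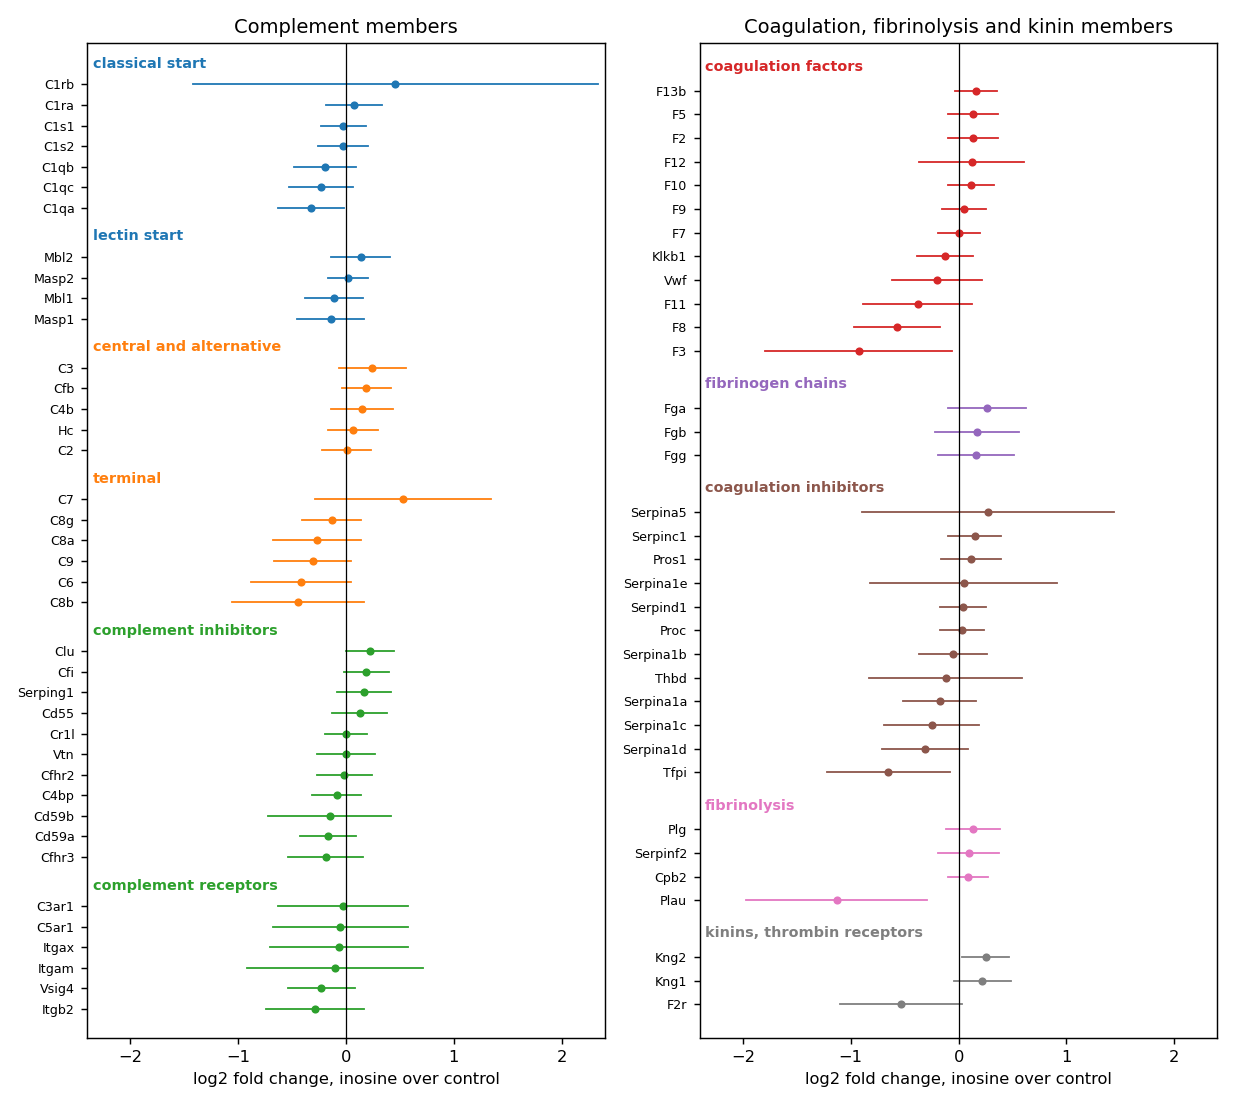
Log2 fold change of inosine over control for 73 of the 76 members tested, grouped by role, with points for the edgeR estimate and bars for its 95% interval. The bars of F8, F3, Tfpi, Plau and C1qa lie below 0 and that of Kng2 above it before any adjustment, and the longest bar belongs to C1rb.

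The classical route is started by C1q, which binds antibody on a target and carries the proteases C1r and C1s. The 3 chains of C1q are made by macrophages, and their genes lie within 18.7 kb on chromosome 4. C1qa (chromosome 4, 136623227 to 136626155 on the minus strand, GRCm39) had 29.5, 28.01 and 31.1 CPM in the inosine libraries, against 29.3, 39.7 and 41.7 CPM in the controls (log2 fold change -0.32, SE 0.13, edgeR adjusted p = 0.32). Controls 2 and 3 stood above all inosine libraries and control 1 stood among them. C1qb and C1qc showed the same arrangement, with log2 fold changes of -0.20 and -0.23, and the 3 chains summed to 87.8, 82.6 and 91.0 CPM in the inosine libraries, against 84.1, 117 and 111 CPM in the controls. Without control replicate 1, the log2 fold change of C1qa was -0.46 (edgeR adjusted p = 0.066), and C1qb, C1qc, C6, C9, F11, Klkb1, Itgb2 and Vsig4 joined the members at an unadjusted p under 0.05. The protease genes, which hepatocytes express, differed less: C1s1, the most abundant of this class at 236 TPM, had 482, 483 and 471 CPM in the inosine libraries, against 463, 478 and 519 CPM in the controls (log2 fold change -0.024, SE 0.089, edgeR adjusted p = 0.93, 95% interval -0.23 to 0.18), and its sign turned without control replicate 3. C1ra had a log2 fold change of 0.076 and C1s2 -0.029. C1rb was at the edge of detection at 0.352 TPM. C1ra and C1rb, and C1s1 and C1s2, are pairs of related copies between which reads can be divided wrongly.

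In the lectin route, mannose-binding lectins recognise sugars on microbes and act through the proteases Masp1 and Masp2. Mbl2 led this class in abundance (1039 TPM) and also had its smallest p, with 653, 687 and 653 CPM in the inosine libraries, against 519, 622 and 674 CPM in the controls (log2 fold change 0.13, SE 0.12, edgeR adjusted p = 0.62). The lowest control lay below the inosine libraries and the highest control between them. Mbl1 had a log2 fold change of -0.11, Masp1 -0.14 and Masp2 0.021, and for all 4 genes the 95% interval stayed inside 1.5-fold either way.

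At the centre of the cascade, all 5 genes had log2 fold changes above 0, from 0.0051 to 0.25, and none passed. All had means of at least 10 TPM, and of the 5459 genes tested at that level 3195 were above 0. C3, on which the 3 routes converge, had 8039, 8875 and 7886 CPM in the inosine libraries, against 6446, 7387 and 7094 CPM in the controls. Every inosine library stood above every control, with means of 8267 ± 532 CPM in inosine and 6975 ± 481 CPM in control (SD, n = 3 each). The difference did not pass (log2 fold change 0.25, SE 0.13, edgeR adjusted p = 0.44), and its 95% interval ran from -0.063 to 0.55. Cfb, the protease of the alternative C3 convertase, had 1715, 1653 and 1604 CPM in the inosine libraries, against 1433, 1487 and 1445 CPM in the controls, again without overlap (log2 fold change 0.19, SE 0.10, edgeR adjusted p = 0.42). The sign of neither turned in any setting tried. C4b and C2, which form the classical convertase, had log2 fold changes of 0.15 and 0.0051, and Hc, which encodes C5, had a log2 fold change of 0.065. Cfb, C2 and C4b lie within 154 kb of each other on chromosome 17, yet their differences ran from 0.0051 to 0.19.

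The terminal components C6 to C9 assemble into the membrane attack complex, the pore that complement inserts into membranes. Of the 6 genes tested, 5 had log2 fold changes below 0 and the median was -0.29, the lowest of the role classes, but no gene passed and none had groups without overlap. C6 had the smallest p of the class, with 11.03, 8.42 and 13.2 CPM in the inosine libraries, against 11.2, 16.3 and 15.9 CPM in the controls (log2 fold change -0.41, SE 0.20, edgeR adjusted p = 0.39). Control 1 lay inside the inosine range. C9, the component that polymerises into the ring, had 218, 203 and 253 CPM in the inosine libraries, against 238, 343 and 254 CPM in the controls (log2 fold change -0.31, SE 0.16, edgeR adjusted p = 0.40). Its highest value came from control 2. C8 is built of 3 chains from separate genes. C8b had 79.5, 123 and 155 CPM in the inosine libraries, against 216, 139.8 and 132 CPM in the controls (log2 fold change -0.45, SE 0.27, edgeR adjusted p = 0.47), and C8a, its neighbour on chromosome 4, had 295, 410.4 and 429 CPM in the inosine libraries, against 388, 543 and 433 CPM in the controls (log2 fold change -0.27, SE 0.18, edgeR adjusted p = 0.51). Inosine 1 was the lowest library for both chains, while the highest was control 1 for C8b and control 2 for C8a. C8g, the most abundant of the class at 567 TPM, had 313, 274 and 341 CPM in the inosine libraries, against 306, 376 and 336 CPM in the controls, which overlapped (log2 fold change -0.13, SE 0.12, edgeR adjusted p = 0.63). C7 was rare at 0.335 TPM and had a log2 fold change of 0.53 with an interval of -0.29 to 1.34. The class was measured with less precision than the one before it: the interval stayed inside 1.5-fold for 1 of its 6 genes, C8g, and for all 5 central genes.

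Host cells are protected by inhibitors in plasma and on membranes. Of 13 tested, 6 had log2 fold changes above 0 and 7 below, with a median of -0.0018. Clusterin (Clu), which binds the assembling pore, had 1324, 1206 and 1239 CPM in the inosine libraries, against 1078, 1063 and 1095 CPM in the controls, so that all inosine libraries stood above all controls (log2 fold change 0.22, SE 0.10, edgeR adjusted p = 0.35). Cfi, the protease that inactivates C3b, did the same with 789.8, 802 and 736 CPM in the inosine libraries, against 682, 674 and 690.4 CPM in the controls (log2 fold change 0.19, SE 0.090, edgeR adjusted p = 0.39). The C1 inhibitor gene Serping1 had a log2 fold change of 0.17, with overlapping groups and with inosine 2 as the highest library. Vitronectin (Vtn), the most abundant of the class at 1952 TPM, had 2262, 2238 and 2067 CPM in the inosine libraries, against 2025, 2386 and 2163 CPM in the controls, with overlapping groups (log2 fold change -0.0018, SE 0.12, edgeR adjusted p = 0.996, interval -0.27 to 0.26). The sign of Vtn turned in several settings. C4bp, the inhibitor of the classical convertase, had a log2 fold change of -0.087. Cfhr2 and Cfhr3 had log2 fold changes of -0.016 and -0.19, and sequence they share with related genes leaves the division of reads uncertain. Of the membrane regulators, Cd55 had a log2 fold change of 0.13, Cd59a -0.16, Cd59b -0.15 and Cr1l, the rodent regulator Crry, 0.00049. Cd46 and Cd55b did not pass the filter.

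Complement receptors sit on immune cells and were rare in whole liver, apart from Vsig4. All 6 tested had log2 fold changes below 0, with a median of -0.084, where 51.8% of all genes tested were below 0. All but Vsig4 had means under 10 TPM. Of the 6867 genes tested at that level, 4123 were below 0, with a median of -0.066. Of the 5459 genes of at least 10 TPM, the level of Vsig4, 2264 were below 0, with a median of 0.032. Vsig4, the receptor by which Kupffer cells clear C3b-coated particles, had 28.1, 22.5 and 24.6 CPM in the inosine libraries, against 24.4, 33.3 and 30.5 CPM in the controls (log2 fold change -0.23, SE 0.13, edgeR adjusted p = 0.47), and its groups overlapped. Itgb2, the beta chain shared by the complement receptors CR3 and CR4, had a log2 fold change of -0.29, and its partner chains Itgam and Itgax -0.10 and -0.067. The receptors for the released fragments, C3ar1 and C5ar1, had log2 fold changes of -0.025 and -0.053 and turned sign on the TPM scale. The Kupffer cell and macrophage list, which contains Vsig4, summed to 301, 259.9 and 287 CPM in the inosine libraries, against 268, 381 and 345 CPM in the controls, with 8 of its 9 genes below 0 and none of them at 0 counts. Control 1 had the lowest value of the controls on that sum, as on C1q. In bulk tissue, fewer cells of a type and less RNA per cell cannot be told apart, and the part of these cells in the C1q and receptor values was not tested.

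Among coagulation factors, the proteases and cofactors that hepatocytes make in bulk showed small differences. Prothrombin (F2), the most abundant at 1194 TPM, had 1722, 1701 and 1617 CPM in the inosine libraries, against 1499, 1487 and 1613 CPM in the controls (log2 fold change 0.13, SE 0.10, edgeR adjusted p = 0.57, interval -0.10 to 0.37). The inosine libraries stood on top by a narrow margin, and the same order held for F13b, the carrier subunit of the fibrin-crosslinking factor (log2 fold change 0.16). The vitamin K-dependent factors F7, F9 and F10 had log2 fold changes of 0.0044, 0.051 and 0.12, and F5, the cofactor of F10, 0.13. Of the contact phase, F12 had a log2 fold change of 0.12 with inosine 1 as the highest library at 344 CPM, plasma prekallikrein (Klkb1) -0.12 and F11 -0.38. F11 had 65.0, 113 and 99.3 CPM in the inosine libraries, against 96.4, 119 and 145 CPM in the controls, and inosine 1 was its lowest library. F11 and Klkb1 are neighbours on chromosome 8, as are F7 and F10.

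Factor VIII (F8), the cofactor of F9, had the smallest edgeR p of the members. It lies on chromosome X, 74213950 to 74426342 on the minus strand, and had 6.36, 9.56 and 8.73 CPM in the inosine libraries, against 10.9, 11.8 and 13.9 CPM in the controls. All inosine libraries stood below all controls, with means of 8.22 ± 1.66 CPM in inosine and 12.2 ± 1.53 CPM in control (SD, n = 3 each). The difference did not pass (log2 fold change -0.57, SE 0.17, edgeR adjusted p = 0.23), at an unadjusted edgeR p of 0.011. F8 had an unadjusted p under 0.05 in every fit listed among the alternatives, with no other member doing so. Over the omissions of single libraries its log2 fold change lay between -0.69 and -0.41, and its adjusted p between 0.14 and 0.46 over all alternatives. Tissue factor (F3), which starts the extrinsic route, had 2.25, 2.12 and 1.68 CPM in the inosine libraries, against 1.997, 5.88 and 3.68 CPM in the controls (log2 fold change -0.93, SE 0.37, edgeR adjusted p = 0.32). Its controls were widely spread, and control 1 lay inside the inosine range. Von Willebrand factor (Vwf), which carries F8 in plasma, had a log2 fold change of -0.20 with overlapping groups. F13a1 did not pass the filter, at 0.068 TPM. Its inosine libraries lay below its controls, and without the filter edgeR had it at an unadjusted p under 0.05. Of the other members that did not pass, Plat had its inosine libraries below its controls and Procr above them, also at low counts.

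Fibrinogen, the precursor of the clot, is built of 3 chains whose genes Fgg, Fga and Fgb lie within 42.1 kb on chromosome 3 (82915031 to 82957170, GRCm39). The 100 bases before the start of each gene are shown because the 3 genes kept nearly the same order from library to library, whatever the group. The sequences are from RefSeq on GRCm38.p6, and capitals mark the 2 motifs searched, GTTAAT (known from promoters of liver genes, read on either strand, so that it may stand as ATTAAC) and CTGGGAA (an element of acute phase promoters, either strand).
Fga, chr3:83026053-83026152, plus strand: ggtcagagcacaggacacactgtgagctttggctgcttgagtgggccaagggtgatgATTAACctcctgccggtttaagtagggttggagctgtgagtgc
Fgb, chr3:83049864-83049963, minus strand: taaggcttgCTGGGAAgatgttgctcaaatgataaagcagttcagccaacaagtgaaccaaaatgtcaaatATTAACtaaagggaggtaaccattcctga
Fgg, chr3:83007624-83007723, plus strand: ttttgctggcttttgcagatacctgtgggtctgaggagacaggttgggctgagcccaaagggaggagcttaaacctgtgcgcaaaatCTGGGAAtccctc
GTTAAT stood before Fga and Fgb, CTGGGAA before Fgb and Fgg, and no match of either overlapped one of the other. A promoter entry was found for 69 of the 90 members, with 74 start sites. In the 250 bases before them, GTTAAT was found in 20, or 27.0%, beside 6.43% of all 32851 promoters in that table. They belong to 20 members, among them the 5 Serpina1 copies, which share sequence, C8a, C8b, Hc and Vtn. CTGGGAA was found in 10, or 13.5%, beside 9.10% of all, with F9, Masp2 and Tfpi among their genes. A match describes these letters only.

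The 3 chains gave nearly the same picture. Fga, with the smallest p, had 3313, 4639 and 3601 CPM in the inosine libraries, against 3334, 3335 and 2941 CPM in the controls (log2 fold change 0.27, SE 0.16, edgeR adjusted p = 0.47). Fgb, the most abundant at 3437 TPM, had 3405, 4856 and 3596 CPM in the inosine libraries, against 3376, 3874 and 3277 CPM in the controls (log2 fold change 0.17, SE 0.17, edgeR adjusted p = 0.66). For Fgg the values were 2636, 3613 and 2801 CPM in the inosine libraries, against 2701, 2904 and 2472 CPM in the controls (log2 fold change 0.16, SE 0.15, edgeR adjusted p = 0.64). Inosine 2 was the highest library for each chain, and control 3 the lowest. The 3 chains summed to 9354, 13108 and 9998 CPM in the inosine libraries, against 9411, 10114 and 8689.9 CPM in the controls. The groups overlapped for each chain, and without inosine replicate 2 the log2 fold change of Fgb was -0.0017 and that of Fga 0.11.

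**Figure D3:**
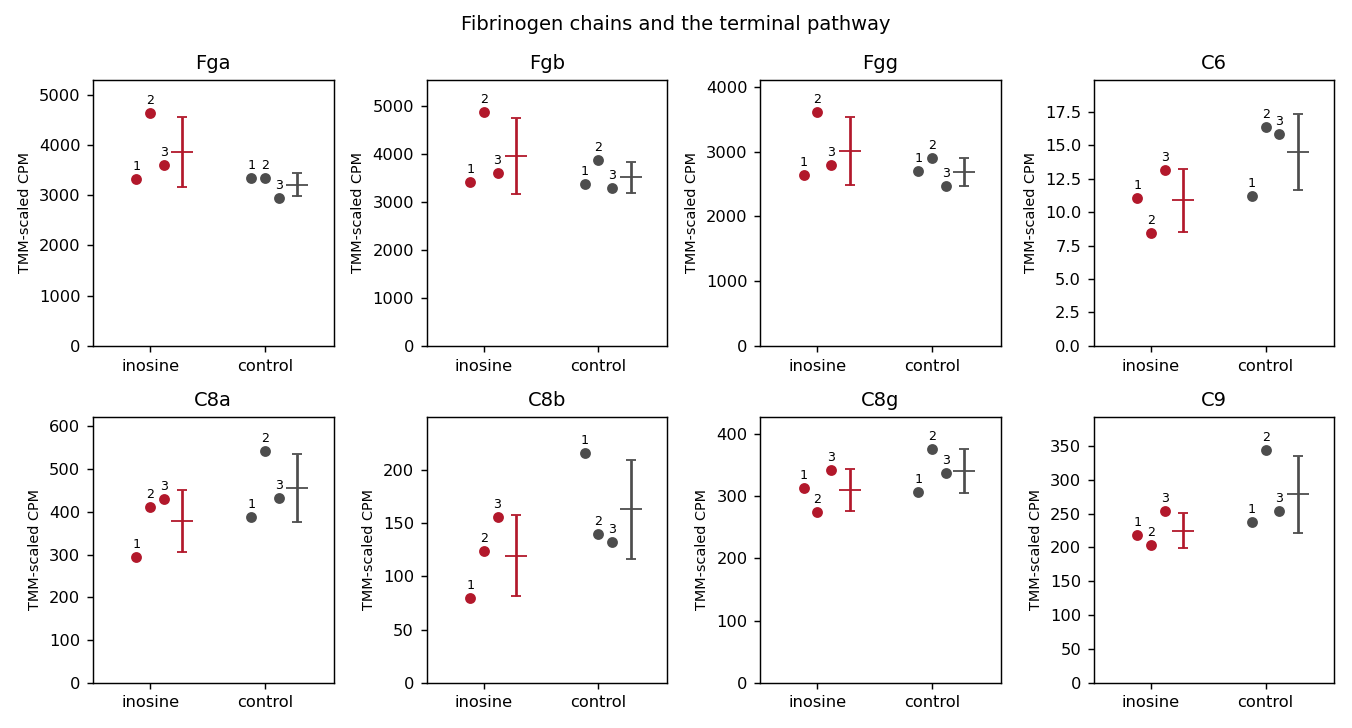
TMM-scaled CPM (vertical, from 0) of the 3 fibrinogen chains and 5 terminal complement genes, with numbered points for the replicates and bars for mean and SD over 3 libraries, inosine left of control in each panel. Inosine 2 is the top point in all 3 fibrinogen panels, and the groups overlap in every panel.

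Of 12 tested inhibitors of coagulation and related plasma proteases, 6 had log2 fold changes above 0 and 6 below. Antithrombin (Serpinc1), the main inhibitor of thrombin, had 2489, 2276 and 2365 CPM in the inosine libraries, against 2048, 2131 and 2256 CPM in the controls, with every inosine library above every control (log2 fold change 0.15, SE 0.11, edgeR adjusted p = 0.55). Heparin cofactor II (Serpind1) had a log2 fold change of 0.039, protein C (Proc) 0.034 and its cofactor protein S (Pros1) 0.12. The alpha-1-antitrypsin copies on chromosome 12 led the whole pathway in abundance. Serpina1b had 5631, 5423 and 6724 CPM in the inosine libraries, against 6092, 5978 and 6388 CPM in the controls (log2 fold change -0.054, SE 0.14, edgeR adjusted p = 0.89), and its sign turned without inosine replicate 2. Serpina1a, Serpina1c and Serpina1d had log2 fold changes of -0.18, -0.25 and -0.31. As these copies are nearly identical, the division of reads between them is uncertain. Their sum with Serpina1e was 14851, 17168 and 20325 CPM in the inosine libraries, against 19000.1, 19213 and 20378 CPM in the controls. Inosine 1 and 2 lay below all controls on that sum and inosine 3 just under the highest of them. Tfpi, the endothelial inhibitor of tissue factor, had 3.77, 4.47 and 3.06 CPM in the inosine libraries, against 4.05, 7.20 and 6.53 CPM in the controls (log2 fold change -0.65, SE 0.25, edgeR adjusted p = 0.30). Controls 2 and 3 were the highest libraries and control 1 lay among the inosine libraries, as for C1q and F3. Thrombomodulin (Thbd) had a log2 fold change of -0.12 and Serpina5 0.27, both near 1 TPM. Procr and A2m did not pass the filter, A2m with reads in control 2 alone.

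In fibrinolysis, plasminogen (Plg), the precursor of plasmin, had 3083, 2991 and 2876 CPM in the inosine libraries, against 2628, 2823 and 2716 CPM in the controls. The inosine libraries stood on top (log2 fold change 0.13, SE 0.11, edgeR adjusted p = 0.60, interval -0.12 to 0.38), as they did for the clot-protecting carboxypeptidase Cpb2 (log2 fold change 0.090). The plasmin inhibitor Serpinf2 had a log2 fold change of 0.095. Urokinase (Plau), an activator of plasminogen, was rare, with 0.507, 0.515 and 0.374 CPM in the inosine libraries, against 0.666, 1.32 and 1.11 CPM in the controls. All inosine libraries lay below all controls (log2 fold change -1.13, SE 0.36, edgeR adjusted p = 0.24). The activator Plat, the urokinase receptor Plaur and Serpinb2 did not pass the filter.

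The kinin branch held Kng2, the single member with an unadjusted edgeR p under 0.05 on the higher side. DESeq2 had C3, Cfb, Cfi, Clu and Kng1 there as well, and limma-voom had Clu and Kng2. The unadjusted edgeR p of Kng2 was 0.052 with the replicate block. It was 0.107, 0.064, 0.070 and 0.056 without inosine 1, inosine 2, control 2 and control 3 in turn. Without inosine 3 or control 1 it was 0.017 and 0.048. Kininogens are the precursors of bradykinin and cofactors of the contact phase, and the mouse genes Kng2 and Kng1 lie within 96.2 kb on chromosome 16. Kng2 had 409, 381 and 344 CPM in the inosine libraries, against 317, 310.2 and 325 CPM in the controls (log2 fold change 0.25, SE 0.094, edgeR adjusted p = 0.30), and Kng1 (1849 TPM, beside 341 TPM) had 2609, 2684 and 2328 CPM in the inosine libraries, against 2081, 2265 and 2198 CPM in the controls (log2 fold change 0.22, SE 0.11, edgeR adjusted p = 0.41). For both genes every inosine library lay above every control, and the sum of the pair was 3018, 3065 and 2672 CPM in the inosine libraries, against 2398, 2575 and 2523 CPM in the controls. The genes are close copies, so the split of reads within the pair is uncertain. The thrombin receptor gene F2r had 3.66, 7.79 and 6.30 CPM in the inosine libraries, against 8.11, 8.94 and 8.63 CPM in the controls (log2 fold change -0.53, SE 0.25, edgeR adjusted p = 0.37). Its inosine libraries lay below its controls, with inosine 2 close to control 1. The kinin receptors Bdkrb1 and Bdkrb2, the further thrombin receptors F2rl2 and F2rl3, and Cr2 and Itgb2l did not pass the filter; with Cd46, Cd55b, F13a1, Procr, A2m, Plat, Plaur and Serpinb2 these were the 14 members not tested, none above 0.488 TPM.

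The 5 members on the lower side at an unadjusted edgeR p under 0.05 were F8, Tfpi, F3, Plau and C1qa. DESeq2 had F2r in addition, limma-voom had F2r but neither C1qa nor F3, and edgeR without the filter added F2r and F13a1. F8, Tfpi, Plau and C1qa are known more from endothelial cells, macrophages and other cells beside hepatocytes than from hepatocytes. Markers of such cells also had log2 fold changes mostly below 0. Over all genes tested, 51.8% were below 0, with 4123 of the 6867 under 10 TPM and 2264 of the 5459 of at least 10 TPM. C1qa, at 55.1 TPM, and the red blood cell genes below are of the more abundant kind. The sinusoidal endothelial list summed to 148, 219 and 195 CPM in the inosine libraries, against 206, 236 and 231 CPM in the controls. Of its 8 genes 7 were below 0, among them Stab2 at a log2 fold change of -0.23, whereas Stab1 was above 0 at 0.092. On the sum of this list inosine 1 was the lowest library and inosine 2 lay within the control range. F8 was likewise lowest in inosine 1, whereas Tfpi, F3 and Plau were lowest in inosine 3 and C1qa in inosine 2. Stellate cell and fibroblast genes summed to 196, 304 and 206 CPM in the inosine libraries, against 291, 299 and 283 CPM in the controls, with 8 of 8 below 0. Red blood cell genes summed to 505, 391 and 305 CPM in the inosine libraries, against 753, 851 and 645 CPM in the controls, with 5 of 5 below 0 and no overlap of the sums. DESeq2 called 4 of these 5 genes, beside 1.88% of all genes with an adjusted p. Of the same 5, edgeR called 0, with 5 at an unadjusted p under 0.05, beside 14.5% of all genes tested. Platelet genes, a source of plasma factors in blood left in tissue, were low, at 4.11, 4.47 and 5.55 CPM in the inosine libraries, against 3.99, 6.30 and 4.38 CPM in the controls. B cell genes reached at most 3.48 CPM and neutrophil genes 7.38 CPM in any library. The cholangiocyte list summed to 38.1 to 55.9 CPM in the inosine libraries and 29.7 to 37.4 CPM in the controls, with 3 of 5 genes below 0. Most of that sum was Spp1, which DESeq2 called higher, at 42.4, 50.7 and 34.5 CPM in the inosine libraries, against 24.4, 27.7 and 33.3 CPM in the controls. No marker in these lists stood at 0 in all libraries. The part of these cells in the differences of the 5 members was not tested.

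**Figure D4:**
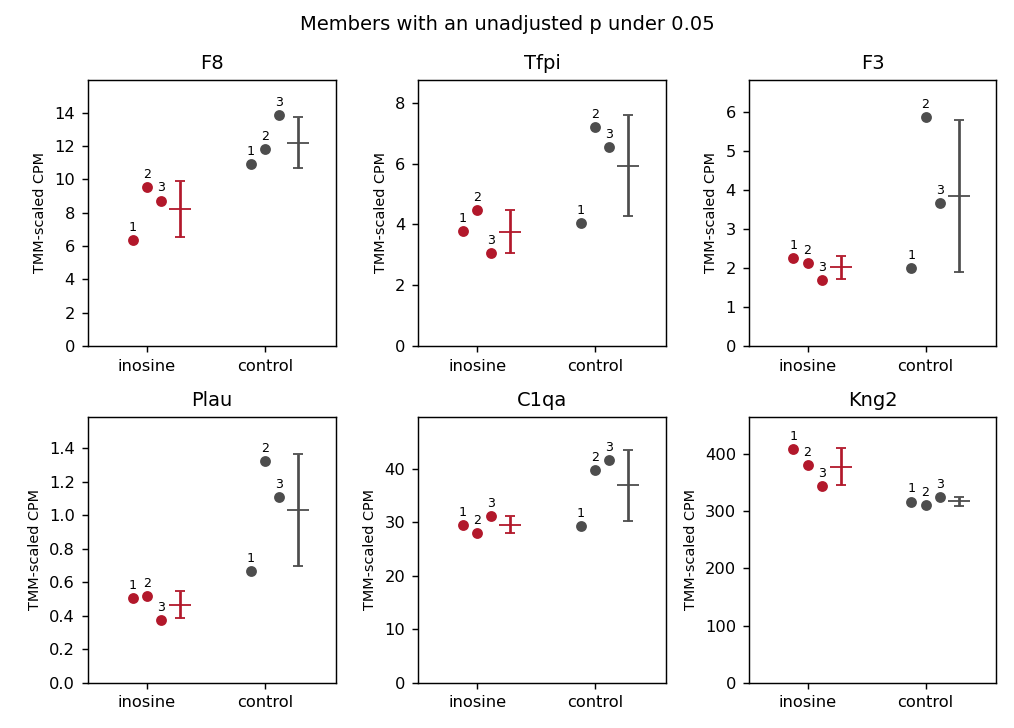
TMM-scaled CPM (vertical, from 0) of the 6 members with an unadjusted edgeR p under 0.05, with numbered points for the replicates and bars for mean and SD over 3 libraries, inosine left of control. Groups do not overlap for F8, Plau and Kng2, whereas control 1 lies within the inosine range for Tfpi, F3 and C1qa.

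By library, the median deviation of the 76 members from the control mean, on log2(CPM + 0.5), was 0.022, 0.0021 and 0.018 in inosine 1 to 3 and -0.076, 0.044 and 0.033 in controls 1 to 3. The lowest library was control 1. For the abundant members the medians were 0.048, 0.033 and 0.026 in the inosine libraries, against -0.070, 0.034 and 0.026 in the controls, and for the rare ones -0.10, -0.056 and -0.15 in the inosine libraries, against -0.11, 0.10 and 0.078 in the controls. Control 1 thus lay below the other controls in both classes. It was below the inosine libraries among the abundant members and inside their range among the rare ones.

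**Figure D5:**
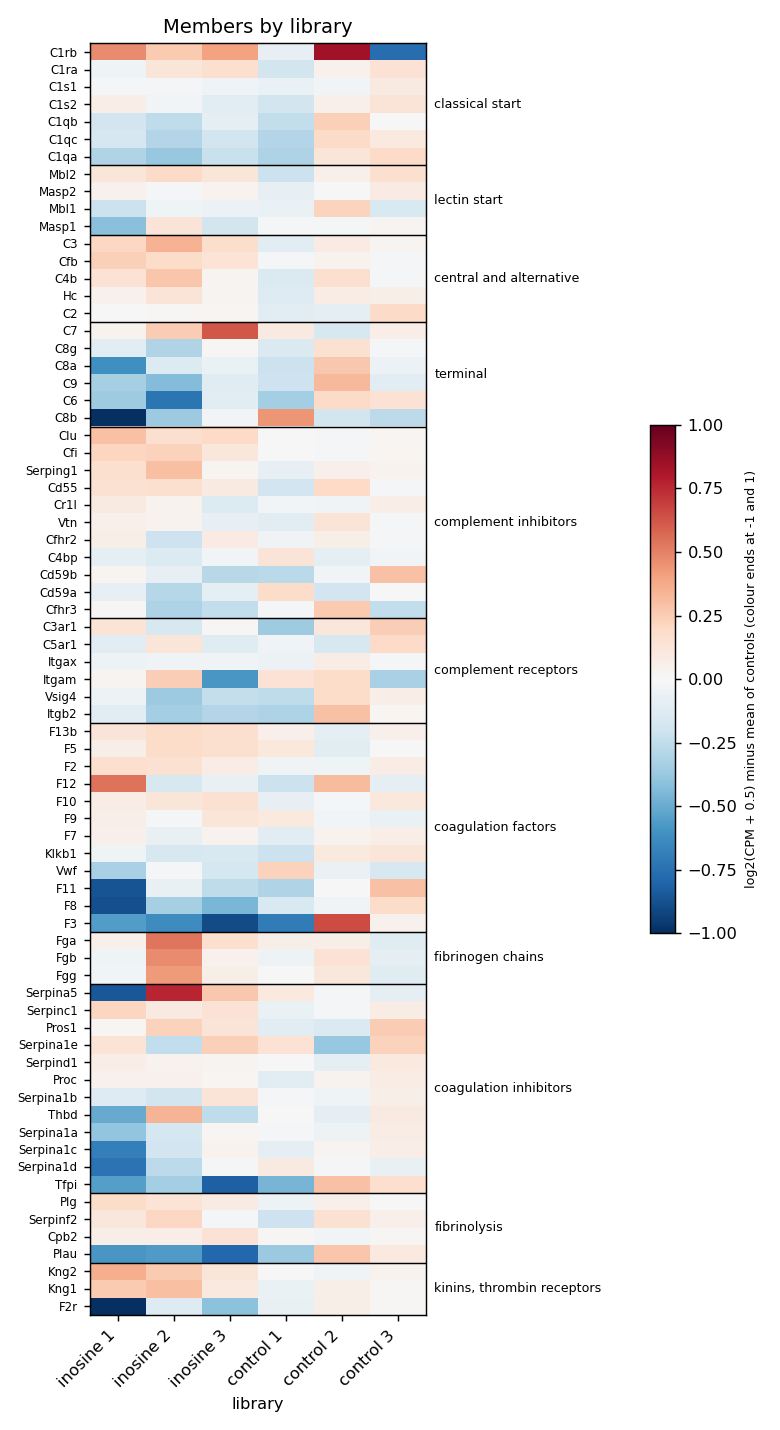
Deviation of 73 of the 76 tested members from the mean of the controls, log2(CPM + 0.5), in colour, with members in rows grouped by role and libraries in columns, inosine left. The fibrinogen rows are reddest in inosine 2, and Serpina1a, Serpina1c, Serpina1d, C8a, C8b and F11 are bluest in inosine 1.

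Protein domains cut across the roles. Of the 20 members annotated with a trypsin-type serine protease domain, 19 were tested, with a median log2 fold change of 0.034, beside 0.011 over the 38 genes tested with that domain. The 18 tested members with a Sushi domain, the building block of complement regulators, had a median of 0.0028, beside -0.016 over the 34 genes tested with it. The 11 with a serpin domain had a median of 0.048, as had the 33 genes tested with that domain. Position gave 17 loci in which members lie within 200 kb of the next one, holding 47 of the 90 members.

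Genes around the cascades, from lists drawn up with earlier results of these data known, gave 0 calls in edgeR as well. Over all genes tested, 7.21% were higher and 7.26% lower at an unadjusted edgeR p under 0.05. DESeq2 called 1.88% of all genes with an adjusted p. Of 32 tested genes that work beside the pathway but are mostly not in its annotation, 1 higher and 4 lower had an unadjusted p under 0.05, and 2 were called by DESeq2, both lower. They were Colec10, a collectin of the lectin route, with 16.6, 22.2 and 20.6 CPM in the inosine libraries, against 28.6, 36.9 and 28.9 CPM in the controls (log2 fold change -0.67, SE 0.14, edgeR adjusted p = 0.13; DESeq2 adjusted p = 0.0080), and S100a10, a plasminogen-binding partner of annexin A2, with 27.6, 21.1 and 26.3 CPM in the inosine libraries, against 51.1, 47.3 and 32.9 CPM in the controls (log2 fold change -0.81, SE 0.17, edgeR adjusted p = 0.13; DESeq2 adjusted p = 0.0031). Both had all inosine libraries below all controls. Colec11 (log2 fold change -0.39) and the ficolin gene Fcna (log2 fold change -0.37), further recognition molecules of the lectin route, had overlapping groups, as did most of the list, and Itih3, an inter-alpha-trypsin inhibitor chain, had a log2 fold change of 0.29 without overlap. In the vitamin K cycle, which readies F2, F7, F9, F10, Proc and Pros1 for calcium binding, 0 of 8 passed, with 1 lower at an unadjusted p under 0.05: Cyp4f14 (log2 fold change -0.33), related to a human enzyme that breaks down vitamin K. The carboxylase Ggcx had a log2 fold change of -0.018 and the reductase Vkorc1 -0.071.

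Among 16 transcription factors of hepatocyte genes, Hnf4a is known to control many genes of both cascades and had the smallest p. Hnf4a had 735, 709.5 and 794 CPM in the inosine libraries, against 541, 489 and 495 CPM in the controls, with no overlap (log2 fold change 0.55, SE 0.10, edgeR adjusted p = 0.087; DESeq2 adjusted p = 2.7e-05). Foxa3 had 43.5, 61.4 and 56.1 CPM in the inosine libraries, against 39.1, 35.5 and 34.8 CPM in the controls, also without overlap (log2 fold change 0.56, SE 0.13, edgeR adjusted p = 0.15; DESeq2 adjusted p = 0.019). Rxra had a log2 fold change of 0.19 and Foxa2 -0.37. Of the 16 genes edgeR called 0, with 3 higher and 1 lower at an unadjusted p under 0.05, and 2 were called by DESeq2, both higher. Over all genes tested, 14.5% had an unadjusted edgeR p under 0.05, and DESeq2 called 1.88% of all genes with an adjusted p. A further list was drawn up for the axis by which interleukin-6 acts through STAT3 on fibrinogen and other acute phase genes. It also held Il1r1, Il1rap, Nfkb1 and Rela, which belong to interleukin-1 and NF-kB signalling. Of its 13 genes tested, edgeR called 0, with 1 higher and 0 lower at an unadjusted p under 0.05. That gene, the interleukin-1 receptor Il1r1, had 85.8, 101 and 139 CPM in the inosine libraries, against 72.7, 55.8 and 54.4 CPM in the controls (log2 fold change 0.83, SE 0.19, edgeR adjusted p = 0.14; DESeq2 adjusted p = 0.0021), the single call of DESeq2 in the list. Stat3 had a log2 fold change of 0.050, the receptor chain Il6ra 0.46 (SE 0.30) and the feedback inhibitor Socs3 -0.084. The groups overlapped for Il6ra, with control 1 as its highest library at 66.5 CPM.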

How the data were processed

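Liver RNA sequencing libraries, 3 inosine and 3 control, were grouped by their titles. The authors deposited estimated counts per gene with TPM and FPKM for each library; Bowtie2, RSEM and GRCm39 are named per the submitters' processing notes, without tool versions. FPKM, as deposited, was not used. Per the file headers, a log2 fold change, a p-value and a q-value accompany each gene in the authors' deposited table. Whether counting used strand is not stated. All 18 columns of per-library values were mapped by name, and 0 were left over. Coordinates are those of the deposited table.

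Counts were rounded and tested with the quasi-likelihood test of edgeR 4.0.16 in R 4.3.3 (TMM, default filter built on a count of 10, group as the only term, two-sided, Benjamini-Hochberg over all 12326 genes tested, threshold 0.05). The SE of a log2 fold change is its size over the square root of the F statistic, and 95% intervals use the t distribution of that fit. DESeq2 1.42.0 and limma-voom of limma 3.58.1, other scaling, no filter, a replicate block and the omission of each library were alternatives. The edgeR step was checked on simulated data. A count of 0 allows up to 3 counts, 0.171 to 0.183 CPM depending on the library, here by library total without TMM scaling. Such floors cover counting error only. Chi-square statistics per gene of 27.3 to 115.1 between libraries of a group left no pair alike within sampling noise.

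Members, role classes and lists were chosen with earlier results of these data known. By the naming rule, full values are given for members with an unadjusted edgeR p under 0.05 or a DESeq2 or authors' call, and in each role class for the most abundant member and that of smallest p; other members printed with full values were chosen after their values were seen. Values of some genes are not reported here.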

Additional observations from a re-analysis of the deposited data

How the results depend on the processing

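With each alternative, 0 members were called: edgeR with RLE scaling, without the low-count filter, with the replicate block and without each library, DESeq2, and limma-voom. The smallest adjusted p of a member in any of them was 0.066, for C1qa without control replicate 1. The count of genes called over the whole table was 1, and became 9 without the filter, 212 with DESeq2, 6 with limma-voom, 0 with the replicate block and 0 to 56 without one library, with 56 without control replicate 1. The median log2 fold change of the members stayed within the spread between libraries in all of these (-0.018 to 0.042 without one library) and moved to 0.070 as a ratio of mean TPM, an alternative added after seeing the data, by which the median of all genes tested moved to 0.052. On that scale 9 of 76 members turned sign. Of 21 members named by rule, 17 kept their sign in every alternative. Vtn turned to 0.0045 without the filter, 0.0028 in DESeq2, 0.00024 with the replicate block and 0.072 by TPM, and ranged from -0.053 to 0.063 without one library. Fgb ranged from -0.0017 to 0.27, Serpina1b from -0.15 to 0.0077 and C1s1 from -0.056 to 0.026 without one library; by TPM Serpina1b was 0.0050 and C1s1 0.044. The cause was not tested. The labels do not say whether same-numbered libraries share anything but the number. Their deviations from the group means correlated at -0.037, -0.033 and -0.016, and those of differently numbered libraries at -0.082 to 0.12. With deviations taken within groups of 3 libraries, these values cannot settle whether libraries were paired. Of the 20 rarer members tested, 1 had an interval inside 1.5-fold either way, beside 2993 of 6867 genes under 10 TPM. The part of depth in this was not tested.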
